A study of Mus musculus with 47 samples.

Results

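Immediate early genes are transcribed within minutes of a stimulus without the need for new protein synthesis, and their mRNAs are known for rapid decay. In many of them, AU-rich elements in the 3′ untranslated region (3′ UTR) recruit proteins that shorten the poly(A) tail and start degradation. In neurons, several of them are widely used as markers of recent activity.

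The 10 genes described here were chosen by name, from a rule that uses no measured value, though with earlier results of these data known. Fos, Fosb, Jun, Junb and Jund encode subunits of the transcription factor AP-1. Egr1 encodes a zinc finger transcription factor. Ier2, Ier3 and Ier5 are immediate early response genes, of which Ier3 is induced by stress and acts on cell survival. Atf3 encodes a stress-induced bZIP factor that can pair with Jun proteins. Their RefSeq names gave 11 transcripts with 10 different 3′ UTR regions, of 28190 mRNA transcripts and 30432 regions in all. The 2 Jund transcripts share 1 region and are counted once.

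SLAM-seq was carried out in P19 embryonal carcinoma cells of the mouse, which become neuronal with retinoic acid. Cells incorporate 4-thiouridine (4sU), and alkylation of it makes new RNA appear with T>C conversions in the reads. Undifferentiated cells (D0) and cells on day 6 of retinoic acid treatment (D6) were each studied in an anabolic course, in which 4sU was added at T0, and in a catabolic course or chase, in which cells labelled for 15 h were moved to UTP without 4sU. The 47 libraries form 16 groups of 3, except for 2 libraries at T3 of the D6 chase. Cells at D0 received 20 µM 4sU and cells at D6 500 µM, so that state and dose cannot be told apart wherever 4sU was present. The anabolic T0 libraries had no 4sU. The labels call the time points 0, 1, 3 and 9 h, whereas the design text gives 0, 3, 6 and 9 h, and they are named T0, T1, T3 and T9 below. The replicates are biological according to the design text.

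Libraries held 3447888 to 11677046 reads on 3′ UTRs at D0 and 1489528 to 7930149 at D6. The shallowest group was T3 of the D6 chase. The summed level of 10 neuronal markers was 595 to 866 RPM in D0 libraries, where RPM is reads scaled to the same total of 3′ UTR reads per library, and 8144 to 11192 in D6 libraries. Pluripotency markers, 8 in number, summed to 301 to 603 at D0 and to between 0.896 and 36 at D6, with Dppa5a and Zfp42 at 0 in all libraries. The 6 mesenchymal and smooth muscle markers summed to 65.2 to 153 at D0 and to 0 to 19.2 at D6. Glial markers summed to 0 to 28.9 and 0 to 78.8, and endoderm markers to 0 to 8.21 and 0 to 29.8. Reads carry no molecular identifiers, and a transcript from few molecules can vary widely between libraries. Eef1a1, a translation elongation factor chosen as an abundant comparator, ranged from 46 to 1529 RPM at D0.

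The 3′ UTR sequences are shown for the AU-rich pentamer ATTTA, because these genes are known for it. Of the 10 regions, 9 could be read base for base from GENCODE transcripts (GRCm38, the same assembly as mm10). ATTTA was present in 8 of the 9, against 58.1% of 14795 measured 3′ UTRs, and long regions hold it more often. Ier2 had none. The longer TTATTTATT was found in Fos alone of the 9, and in 5.45% of all. The densest 30-base stretch is printed 5′ to 3′ on the mRNA strand for 5 genes, with each ATTTA in capitals. Egr1 was left out of the search for such stretches. In the rest, Fos, Ier3 and Jun are those whose stretch holds the pentamer more than once. Jund and Ier5 are shown with Jun because their label is followed over the chase below.
Fos: tttttattgtgttttcaATTTATTTAttaa
Ier3: tctaattaatATTTAtgtATTTAtgtatat
Jun: ATTTAtaatcataggaaagATTTAgtaatt
Jund: tATTTAtgtttctactcgggaacaaacgtt
Ier5: ttggctaaATTTAattctcatgtagcagaa

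These stretches lie in mm10 at chr12:85477094-85477123 on the plus strand (Fos), chr17:35822483-35822512 on the plus strand (Ier3), chr4:95049204-95049233 on the minus strand (Jun), chr8:70700370-70700399 on the plus strand (Jund) and chr1:155096842-155096871 on the minus strand (Ier5), each inside the 3′ UTR counted by the authors. Ier3 had 5 ATTTA in 601 bases, where 3′ UTRs of like length had a median of 1. Fos had 4 in 811 bases (median 1) and Jun 4 in 1231 bases (median 2). Jund had 1 in 533 bases (median 1), Ier5 2 in 2137 bases (median 3), Atf3 3 in 1186 bases (median 2), Egr1 2 in 1188 bases (median 2) and Fosb 1 in 2145 bases (median 3). TGTANATA, the motif bound by Pumilio proteins, was found in Jun (2), Ier5 (2) and Egr1 (1), and in 19.2% of all 3′ UTRs. These counts are descriptions of the letters and not of sites in use.

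The first comparison asked how the mRNAs differed between D6 and D0 cells that had no 4sU. Jund rose and was the only member to pass the test. In RPM, Jund was at 164, 254 and 168 at D0 and at 550, 1006 and 585 at D6. Every D6 library lay above every D0 library, and the log2 fold change was 1.90 (SE 0.32, n = 3 and 3, adjusted p = 9.45e-06, edgeR quasi-likelihood test). In this comparison 10.2% of 20699 transcripts tested passed (6.3% of those tested were higher at D6 and 3.87% lower), and 1 of the 9 members tested. Fosb was too low to be tested.

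Among the other AP-1 genes, Jun was at 111, 21.8 and 121 RPM at D0 and at 145, 212 and 148 at D6. The groups did not overlap, but the difference of 1.08 in log2 (SE 0.59) did not pass (adjusted p = 0.26). Junb was read in 2 of the D0 libraries, at 10.3 and 21.3, and in 1 at D6, at 8.98, and its log2 difference of -1.75 (SE 2.02) did not pass. Fos was read in 1 library of each state, at 9.33 and 15.8. Non-overlap of this kind was common here, as 17.9% of transcripts had all D6 libraries higher and 16.2% all lower.

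Egr1 was at 22.0, 30.9 and 13.7 at D0, and at 0, 0 and 9.17 at D6. The groups did not overlap, and the log2 difference of -2.83 (SE 1.37) did not pass (adjusted p = 0.21). Without D6 replicate 39, the one D6 library of this comparison with Egr1 reads, it passed. Ier2 was at 49.99, 28 and 87.2 at D0 and at 25.2, 8.05 and 14.9 at D6, with a log2 difference of -1.73 (SE 1.11, adjusted p = 0.37). Ier5 (-0.45, SE 0.58), Ier3 (-0.10, SE 1.1) and Atf3 (-0.34, SE 2.48) had differences within their standard errors. The median over the 9 members was -0.34 and over all transcripts 0.

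**Figure D1:**
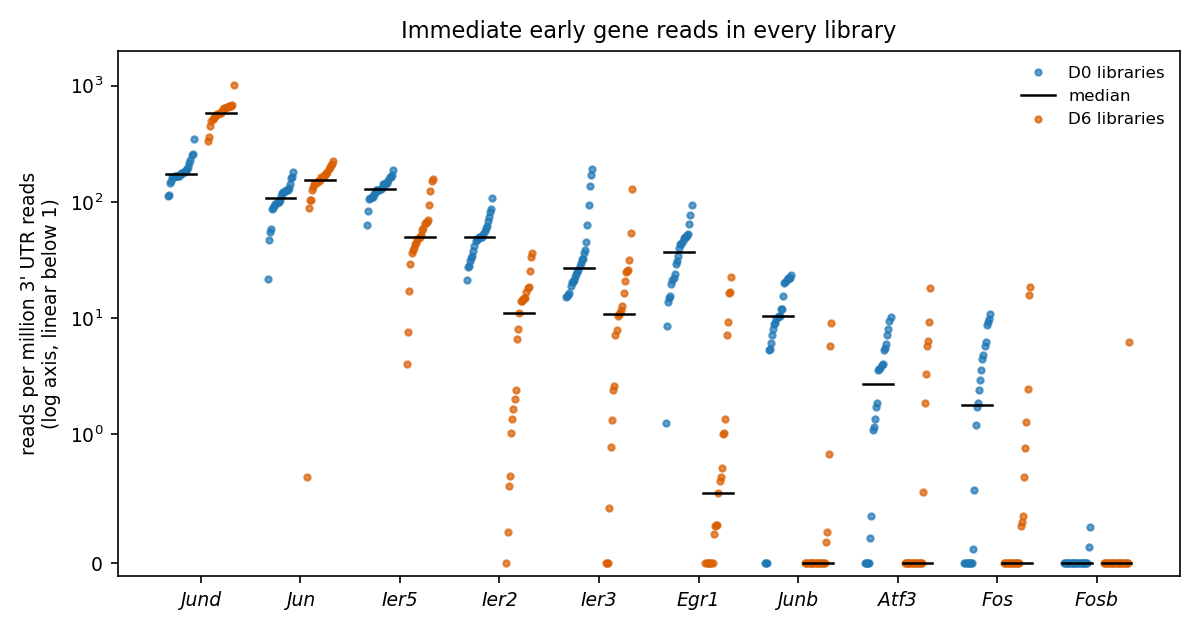
RPM of 3′ UTR reads (log axis, linear below 1) of the 10 genes in each of 24 D0 (blue) and 23 D6 (orange) libraries, all assays and time points together, with black lines for medians. Jund points lie higher at D6, from 331 to 1006, than at D0, from 112 to 346, whereas Egr1 and Junb are at or near 0 in most D6 libraries.

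The 6 libraries without 4sU are few, and the same contrast was therefore also taken as the mean over all 8 conditions of each state, after the values had been seen. State and dose differ together in 7 of those 8 conditions. All 9 members tested passed, where 45.1% of all transcripts did, and the median of all transcripts was -0.34. For 4 of the 9 (Fos, Atf3, Junb and Ier3) the D6 mean includes 1 to 3 groups with no read at all, so that their fitted differences are not measured folds and nothing is read from their calls. Jund (1.71, SE 0.11, adjusted p = 5.06e-20) and Jun (0.59, SE 0.21, adjusted p = 0.016) were higher at D6, and the other 7 had values below 0, where 17.4% of all transcripts were called higher and 27.7% lower. Among the 5 members with reads in every group, the edgeR log2 differences of those that fell were -4.85 for Egr1 (SE 0.60), -2.52 for Ier2 (SE 0.42) and -1.14 for Ier5 (SE 0.21). As ratios of mean RPM over the same libraries, D0 was 10.9 times D6 for Egr1, 4.68 times for Ier2, 2.19 times for Ier5, 16.9 times for Junb, 2.69 times for Ier3, 1.75 times for Fos and 1.66 times for Atf3, and D6 was 3.19 times D0 for Jund and 1.42 times for Jun.

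Over these libraries, Jund was lowest at 112, with a median of 173 and a highest value of 346 at D0, against 331, 585 and 1006 at D6. The ranges met only at the edge. Egr1 had a median of 37.4 (1.26 to 94.9) at D0 and of 0.544 (0 to 22.5) at D6, where 7 of 23 libraries had no Egr1 read. Junb had a median of 10.4 (0 to 23.7) at D0, and 18 of 23 D6 libraries had no read of it. Fos was without reads in 8 of 24 D0 and 14 of 23 D6 libraries, and Atf3 in 5 and 16. Fosb had 3 reads in all at D0 and 21 at D6, the latter in 1 library of the anabolic T1 group. D6 libraries were shallower and listed fewer transcripts with reads (10842 to 17702, against 15363 to 18984 at D0), and the part of this in the zeros was not tested. Gapdh, a glycolytic gene that every cell uses, also had no read on its 3′ UTR in 14 of 23 D6 libraries and in 1 of 24 at D0. Its counted region held few reads at D0 too, with a median of 8.54 RPM, where the cytoskeletal Actb was at 7318. In such bulk libraries, fewer cells with a transcript and less of it per cell cannot be told apart.

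**Figure D2:**
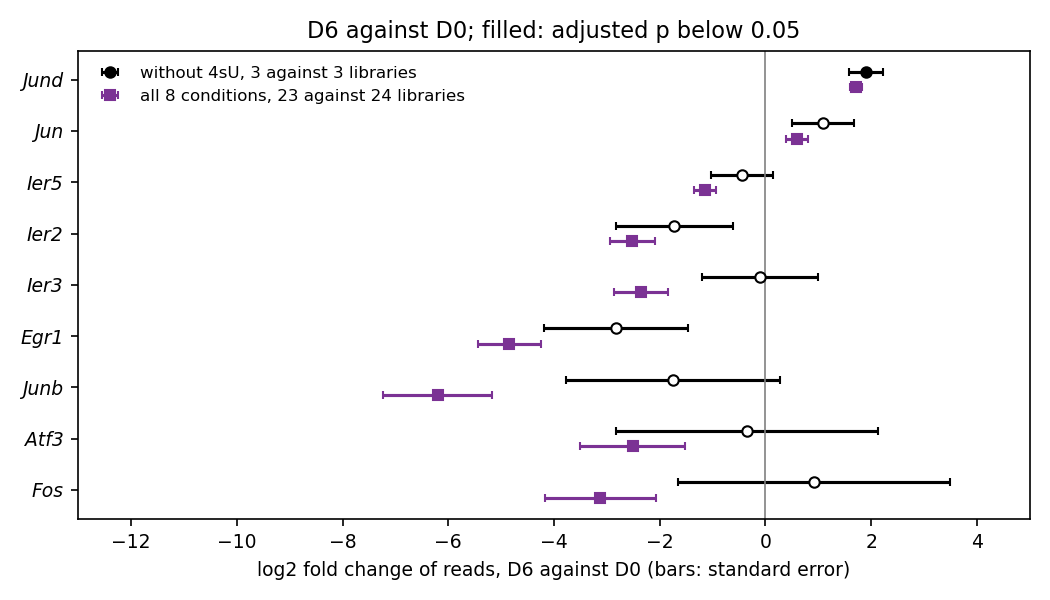
Log2 fold change of reads at D6 against D0 with standard errors, for libraries without 4sU (black circles) and over all 8 conditions (purple squares), with filled symbols for adjusted p below 0.05. Without 4sU Jund alone is filled, at 1.90, while over all conditions all 9 genes are filled, with Jund and Jun to the right of 0 and 7 genes to the left. The squares of Fos, Atf3, Junb and Ier3 average over D6 groups with no read and are no measured folds.

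The time courses asked whether the mRNAs moved after 4sU was added or withdrawn. In 153 tests of the 9 members over 17 contrasts (15 h in 4sU against none, each later time point against T0, and differences between states) edgeR called none, and 14 had an unadjusted p under 0.05. DESeq2 called Ier5 at T9 of the D6 anabolic course, and Ier3 and Ier5 at T3 of the D6 chase. Few transcripts of any kind passed. After 15 h in 4sU against none it was 0.0483% at D0 and 0.0193% at D6, and 0.00483% differed between the states. Against T0, the D0 courses had 0.00483% at anabolic T9 and 0% elsewhere. At D6 it was 0.0193% at anabolic T1, 0% at T3 and 0.0193% at T9, and in the chase 0.00966% at T1 and 0.058% at T9 (0.0193% higher, 0.0386% lower). T3 of the D6 chase, with its 2 shallow libraries, stood apart at 7.39%, 1.3% higher and 6.08% lower. Levels below that did not pass are given as values.

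At D0, Egr1 was highest at T1 of both courses. In the anabolic course it was at 22.0, 30.9 and 13.7 RPM at T0 and at 94.9, 49.6 and 77.6 at T1. It was at 50.3, 43.3 and 46.4 at T3 and at 21.4, 23.9 and 15.6 at T9. The T1 mean was 3.34 times that at T0, with no overlap, and the log2 difference of 1.69 (SE 1.30) had an edgeR adjusted p of 1.

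In the chase, Egr1 was at 8.50, 29.1 and 43.2 at T0 and at 64.8, 52.6 and 51.8 at T1, and the means were 2.09-fold apart. It was at 40.3, 34.4 and 48.7 at T3 and at 14.9, 1.26 and 19.6 at T9. T1 libraries again lay above all T0 libraries. The chase cells had been in 4sU for 15 h before T0, while the anabolic cells had not.

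Jun was also highest at T1 in both D0 courses. It was at 111, 21.8 and 121 at anabolic T0 and at 180, 165 and 162 at T1, and then its group mean was 126 at T3 and 101 at T9. In the chase it was at 55, 97.6 and 87.6 at T0 and at 142, 104 and 126 at T1, followed by means of 109 and 66.9. In each course Egr1 and Jun, 2 of 9 members, had T1 libraries that were all above T0. Of all transcripts with a mean of at least 10 reads, 6.54% (anabolic) and 10.7% (chase) did so, each course taken alone. The share that did so in both courses was not counted. Atf3 had group means of 1.76, 7.41, 4.96 and 2.29 over the anabolic course and of 1.18, 5.06, 2.62 and 0.745 over the chase, with T0 and T1 libraries that overlapped in both.

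Ier3 differed in its course. At D0 it was at 63.8, 93.4 and 26.1 at chase T0, had means of 21.2 at T1 and 24.8 at T3, and was at 169, 136 and 193 at T9. The T9 libraries lay above all 9 others of that chase, and the log2 difference from T0 of 1.37 (SE 1.11) did not pass (edgeR adjusted p = 1). Of all transcripts, 8.86% had T9 libraries that were all above T0 in that chase, and Ier3 was 1 of 9 members. The anabolic means were 23, 31.3, 28.1 and 24.3.

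**Figure D3:**
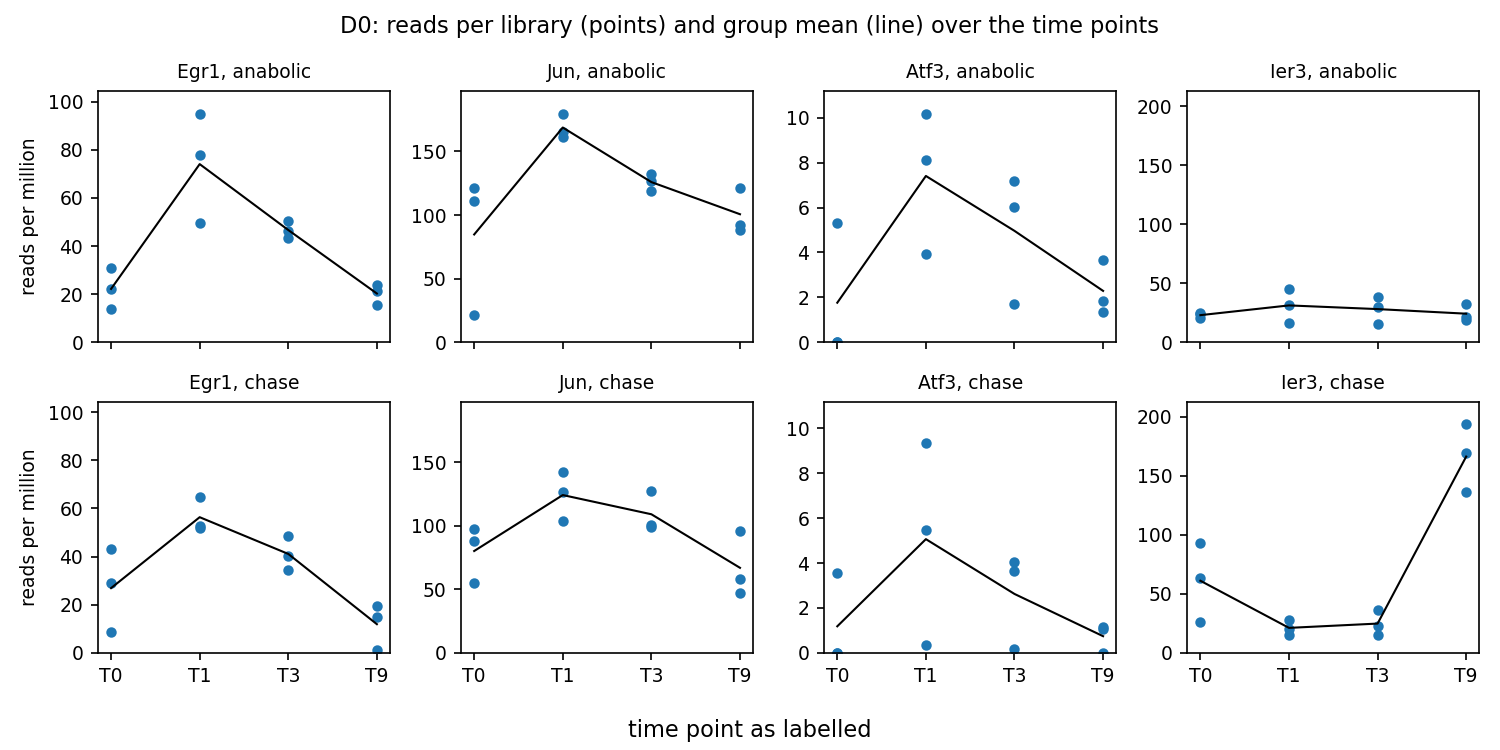
RPM of Egr1, Jun, Atf3 and Ier3 at D0 against the labelled time points, drawn evenly spaced, in the anabolic course (top) and the chase (bottom), with 1 point per library and a line through group means. Egr1 means are highest at T1 (74.0 and 56.4), and Ier3 is at 136 to 193 at T9 of the chase.

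At D6, Jun was at 145, 212 and 148 at anabolic T0 and its later anabolic means lay between 156 and 163. Egr1 was at 0.544, 16.7 and 22.5 at anabolic T1 and below 1 in the libraries of T3 and T9. In the chase it was at 7.19, 16.3 and 0.298 at T1 and below 1 at T0. At T9 of the anabolic course 2 of 9 members were all lower than at T0, as were 6.25% of all transcripts. Ier3 was at 1.33 to 10.5, against 12.8 to 25.6 at T0. Ier5 was at 17, 3.99 and 43.1, against 49.3, 59.96 and 152 at T0. In the chase it was at 36.4, 29.4 and 38.5 at T0, and all libraries of T1, T3 and T9 were higher, at 40.05 to 157, where 4.13%, 6.6% and 7.63% of all transcripts were all higher at T1, T3 and T9. The chase T0 libraries of Ier5 were themselves all below those without 4sU. At T9 Jun and Jund were also all above chase T0 (3 of 9 members with Ier5). At T3 Egr1 was all above it, which made 2 of 9 with Ier5. Ier3 and Jund were all below it at T3 (2 of 9, where 23.5% of all transcripts were all lower). Egr1 had only 4 reads in the T3 group, against 7 at T0, and Ier3 had 0, against 52. Jun was at 0.671 and 208 in the 2 libraries of chase T3. Without replicate 15, that group holds 1 library, with Jun at 0.671, below chase T0, and Ier5 at 157, above it. Any call then rests on that library alone.

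Label was measured as T>C conversions over covered T positions, for 7 members. Fos, Fosb and Atf3 had fewer than 1000 covered T positions per library on average and were left out. Without 4sU the rate of all 3′ UTRs together was 0.171% at D0 and 0.166% at D6, which is the background. After 15 h it was 1.42% at D0 and 4.63% at D6.

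Ier5, Jund and Jun held the most covered positions and were labelled in the anabolic courses of both states. At D0, Ier5 was converted at 0.0373%, 0% and 0.00244% at T0, at 0.192%, 0.209% and 0.331% at T1, at 0.883%, 1.19% and 1.12% at T3 and at 1.34%, 1.15% and 1.60% at T9. All libraries from T1 on were above T0, as for 5.6% of all transcripts at T1, 55.3% at T3 and 72% at T9. The T3 mean was 97.9% of the rate at 15 h, where all 3′ UTRs together were at 38.8%. Jun was at 98.0% of its 15 h rate at T3 and Jund at 43.5%. Background was not subtracted from these shares, and without 4sU Jun was already at 23.4%, Jund at 10.6%, Ier5 at 1.22% and all 3′ UTRs at 12% of the 15 h rate. At D6, the T3 shares were 37.1% for Ier5, 68.4% for Jun and 64.2% for Jund, against 42.1% for all.

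Against T0 at D0, edgeR called no member at T1 (0% of all transcripts; DESeq2 called Ier5 upwards and Jund downwards, and the 3 Jund libraries without 4sU were at 0.0434%, 0.463% and 0.0177%), 5 of 7 at T3 (Egr1, Ier2, Ier3, Ier5 and Jund; 43.8% of all transcripts) and 6 at T9 (Jun as well; 65.5%). At D6 it called Ier2 and Ier5 at T1 (5.73%), all but Egr1 at T3 (66.4%) and Ier2, Ier3, Ier5, Jun and Jund at T9 (72.3%). Ier5 gained 6.49 in log2 at T9 of D0 (SE 1.40, adjusted p = 0.00021) and 7.0 at D6 (SE 1.47, adjusted p = 6.87e-05). Jund gained 2.56 (SE 0.72) and 5.39 (SE 0.82), but its D0 value was 5.08 without replicate 56, the library without 4sU that was at 0.463%. Jun gained 2.81 (SE 1.15) and 6.00 (SE 1.26). Of these called values, Junb at T3 of D6 rests on 1 library at 0.239 RPM, with 22 covered positions, and Ier2 at T1 of D6 on 101 conversions in 1561 positions of 1 library, the others having 0. Ier2 at T3 of D6 turned from 5.29 to -3.35 without T3 replicate 44. Ier3 at T9 of D6 went from 8.43 to 5.55 and no longer passed without T9 replicate 52. With reads with a conversion in place of conversions, Egr1 at T9 of D0 turned from 4.82 to -0.73, and 3 members in place of 6 were called at T3 of D6. Leaving out single libraries without 4sU left 2 of 7 called at T3 and 3 at T9 of D0 (without replicate 55), 3 at T3 without replicate 57, and 0 at T1 of D6 (without replicate 37, 38 or 39). T1 of D6 also had 0 without T1 replicate 42.

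Egr1 had no conversion at D0 T0 in 8122 covered positions, which allows a rate of up to 0.0369% (3 counts, counting error only). Its rate was 0.780%, 0.301% and 0.396% at T1 and 1.19%, 0.640% and 1.06% at T3, and it was 0.0557%, 0.147% and 0.0986% at T9. The T9 libraries were below all those of T1 and T3, while all 3′ UTRs together rose to 1.24% at T9. At T9 these rates rest on 2, 9 and 2 conversions. Relative to all 3′ UTRs, Egr1 at T9 was 3.11 lower in log2 than after 15 h (SE 1.65), which did not pass (edgeR adjusted p = 1).

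The chase asked how fast the label left each mRNA. At D0, Ier5 was at 1.52%, 1.24% and 0.499% at T0 and at 0.628%, 0.840% and 0.599% at T1. It was at 0.416%, 0.573% and 0.227% at T3 and at 0.0528%, 0.00393% and 0.0399% at T9. The T9 mean was 2.96% of the T0 mean, and that of all 3′ UTRs 29.2%. Jun at D0 kept 109% at T1, 32% at T3 and 15.3% at T9, and Jund kept 79.0%, 37.1% and 14.5%. All 3′ UTRs together kept 99.4%, 73.1% and 29.2%. The other tested members did not share one direction at T9. Ier2 kept 57.3% of its mean rate, with 0%, 2.29% and 0.789% in the T9 libraries, and Ier3 kept 25.3%, with 0.00373%, 0.352% and 0.021%. Egr1 had no conversion left. Junb without 4sU was already at 88.2% of its 15 h rate, so that its rates give no share of label left. At T3, 3 of 7 members (Ier2, Jun and Jund) had all libraries below T0, as did 16.4% of all transcripts. Ier3 had 11 conversions there (mean 0.0574%, SD 0.0993), and the Egr1 rate at T0 was 1.03% (SD 1.23). Where all 3′ UTRs kept 73.1% at T3, Ier2 kept 14.6%, Ier3 11.6% and Egr1 16.3%. These shares include the background, which at D0 was 23.4% of the 15 h rate for Jun, 10.6% for Jund, 2.62% for Ier2 and 12% for all 3′ UTRs, and the T9 rate of Jun was below its rate without 4sU.

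At D6, Ier5 was at 6.50%, 6.96% and 9.47% at T0 and at 4.83%, 2.58% and 5.58% at T1. It was at 0% and 0.453% at T3 and at 0.190%, 0% and 0% at T9. Its mean was down to 2.96% of T0 at T3, where all 3′ UTRs kept 49.0%, and to 0.826% at T9, where they kept 19.1%. Jun kept 103% at T1, 38.4% at T3 (1 library) and 6.35% at T9, and Jund kept 127%, 52.3% and 9.15%, where all 3′ UTRs kept 101% at T1. Ier2 kept 94.3% of its mean rate at T9, which rests on 2 conversions in 68 positions of 1 library, and its pooled rate went from 2.24% to 0.227%. Ier3 and Junb had no conversions at T0 of this chase. Actb, the long-lived cytoskeletal mRNA taken as comparator, kept 63.3% at D0 and 37.3% at D6.

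**Figure D4:**
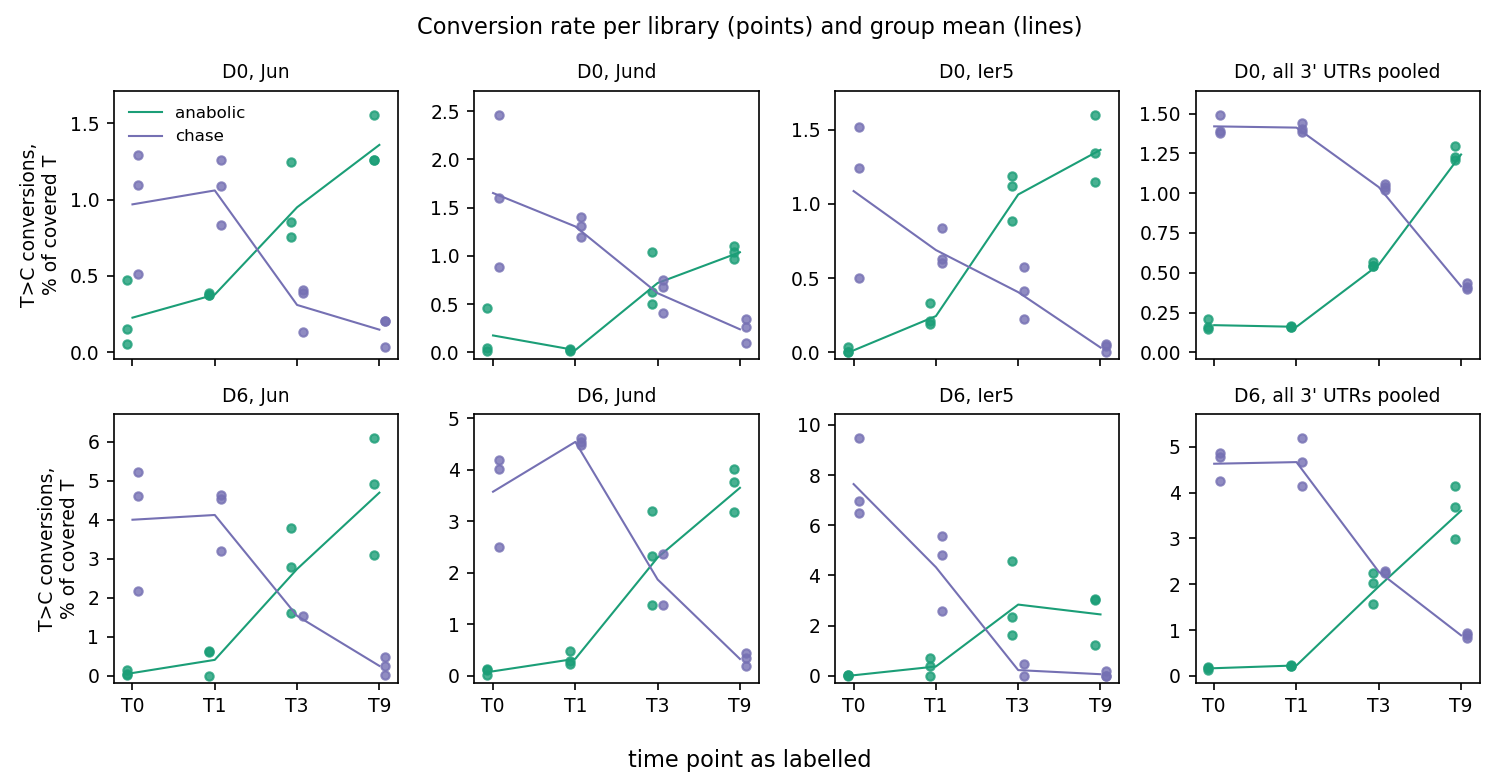
T>C conversions as a percentage of covered T positions for Jun, Jund, Ier5 and all 3′ UTRs pooled, over the evenly spaced time points at D0 (top) and D6 (bottom), with 1 point per library and lines through group means of the anabolic course (green) and the chase (purple), each panel on its own scale. Ier5 at D6 falls from 6.50% to 9.47% at T0 to at most 0.190% at T9 of the chase.

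Relative to all 3′ UTRs of the same library, none of the 7 members passed at T1, T3 or T9 in either state, nor for uptake or between the states (63 edgeR tests, 5 with an unadjusted p under 0.05). At most 0.367% of all transcripts passed in these contrasts (T9 at D0). The largest values at T9 with conversions left were those of Ier5, -3.28 at D0 (SE 1.19, adjusted p = 0.18) and -4.44 at D6 (SE 1.26, adjusted p = 0.11). DESeq2 called Ier5 at T9 in both states and at T3 of D6, and limma on background-subtracted rates called it at T3 and T9 of D6. Each also called 1 gene at T3 of D6 with too little coverage there to show a change. For Ier2 (DESeq2, lower), 0 conversions in 96 covered positions allow a rate of up to 3.12%, above the pooled 2.24% at T0, and Egr1 (limma, higher) had 2 conversions in 73 positions. Jun was at -0.91 (SE 1.03) and -1.61 (SE 1.03), and Jund at -1.02 (SE 0.67) and -1.03 (SE 0.66). Ier2 was above 0 in both states (0.98, SE 1.55, and 1.69, SE 2.07), while Ier3 was at -0.16 at D0 (SE 1.88). Of 7 long-lived comparators tested, Actb alone passed, at 1.11 at D0 (SE 0.18, adjusted p = 8.29e-05) and 0.96 at D6 (SE 0.18, adjusted p = 0.00113), and 1 of the 7 was below 0 at D0 and 2 at D6. Egr1 had 0 conversions in 6124 positions at T9 of D0, which allows up to 0.0490%.

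Taken as such, without the rate of all 3′ UTRs, the label of Ier5 fell at T9, with log2 differences of -5.03 at D0 (SE 1.30, edgeR adjusted p = 0.00834) and -6.74 at D6 (SE 1.41, adjusted p = 0.000672). Jund fell as well (-2.79, SE 0.73, and -3.45, SE 0.75). Jun fell at D6 (-3.96, SE 1.14), and its -2.68 at D0 (SE 1.09) did not pass. Egr1 passed at D0 against a group at 0. In this form 21.0% of all transcripts passed at D0 and 34.7% at D6. The mean of T3 and T9 against that of T0 and T1, a contrast added after seeing the data, called Ier5 at D6 (-3.88, SE 0.97, edgeR adjusted p = 0.024; 1.86% of all transcripts) and none at D0 (0.222%).

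Half-lives were fitted with the hours of the design text and accepted with an R2 over 0.6. The decay half-life of Ier5 was 216 min at D0 (SE 52.3) and 149 min at D6 (SE 30.2), while Jund had 270 min at D0 (SE 63.3). Of 14426 transcripts, decay fits were accepted for 2257 at D0 and 2445 at D6. These accepted transcripts had a median of 281 min at D0 and of 221 min at D6, and 24.8% and 18.6% of them were shorter than Ier5. The fits of Jun (R2 of 0.540 at D0 and 0.579 at D6) and of Jund at D6 (R2 of 0.489) were not accepted. In synthesis, Ier5 had 150 min at D0 (SE 47.9), a value with 0.408% of the 3187 accepted transcripts below it. Ier2 had 292 min (SE 71.2) and Jund 485 min (SE 91.3) at D0, and Jun had 217 min (SE 70.6) and Jund 253 min (SE 59.2) at D6. These values rest on which hours hold, and that was not tested. In the anabolic courses, all 3′ UTRs together were converted at 0.171% at T0 and 0.160% at T1 of D0. At D6 they were at 0.166% at T0 and 0.226% at T1. At T3 they were at 0.551% at D0 and 1.95% at D6. At T1 of the chase they kept 99.4% of the T0 rate at D0 and 101% at D6. The pooled rate at T1 was thus not above that at T0 at D0, and little above it at D6. With the hours of the labels, decay came to 113 min for Ier5 and 147 min for Jund at D0, and to 62.1 min for Ier5 at D6. Synthesis then came to 75.5 min for Ier5, 148 min for Ier2 and 328 min for Jund at D0, and to 121 min for Jun and 140.3 min for Jund at D6. With T0 and T9 only, decay came to 106 min for Ier5 and 194 min for Jund at D0, and to 78 min for Ier5 at D6. The synthesis fits of Ier5 at D0 and of Jun and Jund at D6 then all ended at 9.34 min, where the fitted curve had levelled off, as their T9 rates were 126%, 117% and 102% of the 15 h rate, so that T0 and T9 alone gave no half-life for them.

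Other genes of the pathway were taken from fixed lists, and compared at D6 against D0 without 4sU. Of 34 other early response genes tested, 3 rose and 2 fell. Gadd45g, a growth arrest gene, rose by 5.70 in log2 (SE 0.76), Rnd3 by 2.86 (SE 0.44) and Btg2, an antiproliferative gene, by 2.82 (SE 0.83). Ccn2, a matricellular protein gene, fell (-3.87, SE 1.16), as did Csrnp1 (-8.93, SE 2.61). Among other AP-1 and ATF genes, Ddit3 rose (2.56, SE 0.86) and Atf4 fell by 0.89 (SE 0.30). None of 20 upstream SRF, ETS and MAP kinase genes passed, and 4 had an unadjusted p under 0.05. Of 15 genes for AU-rich element binding and deadenylation, Tia1 (1.91, SE 0.61) and Cnot6l (1.18, SE 0.40) rose. Of 15 integrated stress response targets, Ddit3, which is on both lists, rose, and Psat1 (-1.73, SE 0.31), Asns (-2.04, SE 0.57) and Slc7a11 (-7.51, SE 2.05) fell. In edgeR, 6.30% of all transcripts were called higher and 3.87% lower.

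Over the 16 group means, the genes with read patterns nearest to Jun were Ppt1, Atf2 and Emc3, with root mean square differences of 0.28, 0.33 and 0.36 in log2, where the median gene was at 1.30. Nearest to Egr1 were Card19 (0.94), Col8a1 (0.95) and Bambi (1.02), with a median of 2.72. Nearest to Ier2 were Adk (0.45), Tcf7l1 (0.62) and Polr1a (0.64), with a median of 1.75. Nearest to Fos were Pop4 (0.79), Dtymk (0.83) and Il10rb (0.88), with a median of 1.61. The groups share their depth and 4sU treatment, and these are descriptions with no test.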

How the data were processed

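SLAM-seq libraries of P19 cells (QuantSeq 3′ libraries) were mapped by the authors to mm10 with SLAMdunk 0.3.3, and the deposited counts of reads, covered T positions, T>C conversions and reads with a conversion were used. The deposited rates and CPM were not used. The methods name a GENCODE annotation, while the files carry RefSeq names. Counts were summed per transcript. Reads were tested with edgeR 4.0.16 (quasi-likelihood, TMM, filterByExpr, 1 fit over the 47 libraries), and conversions with an offset of covered T positions, with or without the pooled rate of the library, for 14426 transcripts. Adjusted p-values are Benjamini-Hochberg over all transcripts, with a threshold of 0.05. RPM values are per library over all 3′ UTR reads. DESeq2 1.42.0 and limma 3.58.1 were alternatives. Scripts were tested on simulated data. A transcript that did not pass is not shown to be unchanged. The members, lists and tests were chosen with earlier results of these data known. All member transcripts are named, and at most 3 genes per list and direction. Of the listed genes, Dusp5 was not matched, and the result of 1 other is not reported here. Promoter windows from RefSeq were held for 8 members. None of these windows held a CArG box, the letters bound by SRF (1.63% of 32841 windows), or TGACGTCA (1.79%). Each window is a short stretch, at Fos chr12:85473640-85473939, and sequence outside the windows was not searched.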

Additional observations from a re-analysis of the deposited data

Results flagged for a closer look

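Ier3 reads after 15 h in 4sU lay on opposite sides of those without 4sU in the 2 states, and the difference passed no test. At D0 the libraries without 4sU were at 24.8, 23.8 and 20.4 RPM and those after 15 h at 63.8, 93.4 and 26.1, all higher. At D6 they were at 25.6, 12.8 and 24.9 without 4sU and at 2.59, 0.900 and 11.2 after 15 h, all lower. Of all transcripts, 3.73% were all higher at D0 and 5.71% all lower at D6. At D6, Ier5 (-1.43, SE 0.60) and Jun (-0.65, SE 0.58) were also all lower and did not pass (edgeR adjusted p = 0.79 and 1), so that 3 of 9 members were all lower. The difference between the states was -3.67 in log2 (SE 1.61) and did not pass (edgeR adjusted p = 0.75). The dose of 4sU also differed between the states. Groups of 2 or 3 libraries were not tested for outlying samples.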

How the results depend on the processing

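No paired analysis was possible because each library has a replicate number of its own. Of 457 counts of called members or accepted half-lives under alternatives, 413 stayed within 1.5 times the value reported. For reads, the mean over all 8 conditions gave 9 members called for D6 against D0 in place of 1, of which 4 have D6 groups with no read. DESeq2 gave 1 at anabolic T9 and 2 at chase T3 of D6 in place of 0. Leaving out 1 library gave 1 to 2 for D6 against D0 (2 without D6 anabolic T0 replicate 39), 0 to 2 at chase T3 of D6 (2 without replicate 15), and 0 elsewhere. Leave-one-out fits kept the dispersions of the full fit.

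For label left at T9, the form without the pooled rate gave 3 at D0 and 3 at D6 in place of 0. DESeq2 gave 1 at T9 of D0, 2 at T3 and 1 at T9 of D6, limma gave 2 at T3 and 1 at T9 of D6, and T3 with T9 against T0 with T1 gave 1 at D6. Leaving out D6 chase T3 replicate 15 or T9 replicate 16 gave 1 in place of 0, so that those ranges were 0 to 1. For uptake at T1 of D6, reported as 2, the coverage minimum of 100 and limma gave 0, reads with a conversion gave 1 and DESeq2 4, and leaving out a library gave 0 to 2 (0 without any of anabolic T0 replicates 37, 38 and 39, or T1 replicate 42). At T1 of D0 DESeq2 gave 2 and leave-one-out 0 to 1 (1 without T0 replicate 55). At T3 of D6 reads with a conversion gave 3 in place of 6, with 4 to 6 on leaving out a library, and at T9 of D6 the range was 4 to 5. At D0, T3 ranged from 2 to 5 (2 without T0 replicate 55, 3 without replicate 57) and T9 from 3 to 6 (lowest without T0 replicate 55). Egr1 uptake at T9 of D0 reversed to -0.73 with reads with a conversion, and Ier2 uptake at D6 reversed on leaving out 1 library, with ranges of -3.35 (without T1 replicate 42) to 10.2 at T1 and of -3.35 (without T3 replicate 44) to 8.65 at T3.

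Accepted decay half-lives numbered 2 at D0 (2 to 3 on leaving out a library, 7 with no minimum of R2) and 1 at D6 (1 to 2, 3 with label hours, 3 with T0 and T9 only, 4 with no minimum). Those of synthesis numbered 3 at D0 (2 to 4, 7 with no minimum) and 2 at D6 (1 to 3, 1 with T0 and T9 only). Single fold changes that were not called changed sign in 140 of 1704 cases for reads and 67 of 1122 for label, and 6 and 74 gained or lost the call. The cause was not tested. Further contrasts were added after the planned ones had called few members: 7 for reads and 2 for label, of which 6 and 1 called none. Low coverage limits Fos, Fosb, Atf3 and, at D6, Egr1 and Junb.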
